A study of Mus musculus with 19 samples.

Results

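The genes described here are 41 genes of DNA replication and mitosis, listed by name, of which 40 were measured among the 18193 genes with a probe set of their own on the array. Of the probe sets of a gene, the brightest on average over the arrays of a tissue (mean log2 signal) stood for it in that tissue, a choice that used no comparison between groups. For the remaining listed gene, Ccnb1, no probe set naming it was used here, and it was not analysed here. The arrays were Affymetrix Mouse 430 2.0 GeneChips of pancreatic lymph nodes (PLNs) and fat from female NOD (NOD/LtJx) mice, a strain that develops spontaneous autoimmune diabetes. The PLN groups were AAT (new onset diabetic mice treated with alpha1 antitrypsin, 4 arrays), DIA (new onset diabetic mice without it, 2 arrays) and NOR (normoglycemic mice, 4 arrays). The fat groups were PM (new onset diabetic mice given the Power Mix of IL2.Ig, a mutant antagonist-type IL15.Ig and rapamycin, 3 arrays), AAT (2 arrays), DIA (2 arrays) and NOR (2 arrays). Ages and treatment times are not given for the arrays, and no source used here tells if replicate arrays came from different mice, so p-values measure only the spread between these samples.

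Cells copy their DNA with a ring-shaped helicase, the MCM complex, which is loaded onto origins in G1 by Cdc6 and Cdt1 and switched on in S phase by Cdc45 and the GINS complex. The sliding clamp Pcna then holds the polymerases on the template, and Tyms, Rrm1, Rrm2 and Tk1 supply nucleotides. In mitosis the cyclin B partners of Cdk1, the Aurora and Polo kinases, the Bub checkpoint proteins and Cdc20, the activator of the anaphase-promoting complex, time the separation of chromosomes that centromere proteins and spindle motors carry out. In lymph nodes these transcripts are known from activated lymphocytes, above all from dividing B cells of germinal centres, whereas mature adipocytes do not divide.

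Promoter sequence was looked up in a RefSeq table of mouse promoters (GRCm38.p6), which held 33 of the 41 genes. Over the 250 bases before the start, on both strands, 3 motifs known from cell cycle promoters were searched by their letters, and where a gene had several promoters the one listed first was taken. The CCAAT box (CCAAT) stood in 24 of the 33 promoters (72.7%), against 34.5% of the 27018 genes of the table. The E2F letters (TTTCGCGC, TTTGGCGC, TTTCCCGC or TTTGCCGC) stood in 5 of 33 (15.2%), against 1.91% of all genes. The CHR letters (TTTGAA or TTCGAA), known from genes of G2 and M phase, stood in 10 of 33 (30.3%), against 17.4% of all genes. By role, E2F letters stood in 3 of the 5 MCM promoters held (Mcm5, Mcm6 and Mcm7) and in those of Cdc6 and Cdk1. They stood in 0 of the 6 promoters of the mitotic kinase, checkpoint and Cdc20 group, of which 2 held CHR letters. CHR letters also stood in 2 of the 5 MCM promoters, 1 of 3 of helicase loading, 2 of 4 of cyclins and Cdk1, 1 of 5 of the centromere and spindle group and both of Mki67 and Top2a. A match of letters is a description and not a measured binding site. The promoters of the 3 genes that were called in nodes and of Pcna, the gene with the smallest p between DIA and NOR fat, are shown, with E2F, CHR and CCAAT matches in capitals. They lie at chr8:75109259-75109508 on the plus strand (Mcm5), and on the minus strand at chr6:88898781-88899030 (Mcm2), chr4:118437344-118437593 (Cdc20) and chr2:132253181-132253430 (Pcna).
Mcm5: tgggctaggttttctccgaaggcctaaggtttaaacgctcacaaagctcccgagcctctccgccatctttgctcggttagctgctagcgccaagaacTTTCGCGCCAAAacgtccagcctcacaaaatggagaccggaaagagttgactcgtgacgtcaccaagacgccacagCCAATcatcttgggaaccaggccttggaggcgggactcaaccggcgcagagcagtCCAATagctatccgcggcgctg
Mcm2: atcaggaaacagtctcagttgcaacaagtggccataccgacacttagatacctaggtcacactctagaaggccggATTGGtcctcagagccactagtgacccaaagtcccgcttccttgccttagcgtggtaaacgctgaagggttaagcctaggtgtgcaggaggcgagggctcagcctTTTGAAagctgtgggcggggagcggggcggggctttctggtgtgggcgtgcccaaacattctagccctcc
Cdc20: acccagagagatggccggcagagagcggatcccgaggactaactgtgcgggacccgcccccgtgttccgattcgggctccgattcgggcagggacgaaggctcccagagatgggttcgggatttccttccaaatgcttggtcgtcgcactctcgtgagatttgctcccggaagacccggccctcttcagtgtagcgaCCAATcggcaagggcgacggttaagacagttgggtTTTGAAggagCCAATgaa
Pcna: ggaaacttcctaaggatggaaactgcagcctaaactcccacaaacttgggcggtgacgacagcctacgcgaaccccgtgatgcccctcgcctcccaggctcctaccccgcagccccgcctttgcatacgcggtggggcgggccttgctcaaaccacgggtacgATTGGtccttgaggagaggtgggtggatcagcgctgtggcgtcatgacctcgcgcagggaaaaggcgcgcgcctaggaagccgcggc
The Mcm5 promoter held 2 E2F matches that overlap on opposite strands and 2 CCAAT boxes, with the nearest CCAAT box 18 bases before the start. The Mcm2 promoter held 1 CHR match and 1 CCAAT box and the Cdc20 promoter 1 CHR match and 2 CCAAT boxes, while the Pcna promoter held 1 CCAAT box.

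The deposited signals are linear MAS5 values scaled to the same trimmed mean on every array. Changes were estimated on the log2 scale with limma, and a gene was called at a p, adjusted over all 45037 probe sets, under 0.05. The threshold of the study's methods, a fold change over 2 with an unadjusted p of at most 0.05, was applied beside it to the changes as measured. Log2 changes are given relative to the median change of all probe sets in that comparison, which in nodes was −0.11 for DIA vs NOR, −0.58 for AAT vs DIA and −0.72 for AAT vs NOR, and lay between −0.13 and 0.17 in fat. Counts of genes above or below a group use these relative changes, while comparisons of single arrays use the signals. The p-values test the changes as measured, before that median is taken off. The median signal of an array was 92.3 to 178 in AAT nodes, 152 to 279 in DIA nodes and 179 to 265 in NOR nodes. Arrays of a group correlated at 0.705 to 0.890 in nodes and at 0.789 to 0.866 in fat. The T cell marker Cd3e lay at 3622 to 12437 in nodes and at 36.3 to 187 in fat, and the adipocyte marker Adipoq at 46.2 to 1570 in nodes and at 15690 to 60264 in fat. Acinar markers of the pancreas summed to 125335 in AAT array 3 and to 7430 in DIA array 1, against 258 to 1442 in the other node arrays. Medians without these arrays are given below for DIA vs NOR and AAT vs DIA nodes. For AAT vs NOR nodes the calls of the called genes without AAT array 3 and a range of medians over single arrays left out are given.

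In nodes, 20 of the 40 genes lay above the array's median signal on all 10 arrays and 1 gene, Plk1, on none. Mcm6, an MCM subunit, had 17282, 13584, 11832 and 17033 in AAT nodes, 5054 and 11383 in DIA nodes and 6171, 5046, 8828 and 7601 in NOR nodes. Mki67, which encodes the proliferation marker Ki-67, had 11852, 4831, 4304 and 11440 in AAT nodes, 7032 and 14091 in DIA nodes and 8314, 4263, 7159 and 8052 in NOR nodes. Pcna had 5327, 9215, 3937 and 6853 in AAT nodes, 3335 and 6182 in DIA nodes and 4563, 3767, 5965 and 4735 in NOR nodes. Mcm6 was above all NOR arrays on every AAT array, while Mki67 and Pcna overlapped in all 3 groups. Cdt1 had 3866, 3549, 5212 and 3817 in AAT nodes, 2095 and 3102 in DIA nodes and 2776, 1796, 2986 and 2201 in NOR nodes, with each AAT array above all others. The DIA arrays were unlike each other: the median deviation of the 40 genes from their own means, less that of all genes, was −0.13 on DIA array 1 and 0.59 on DIA array 2, against −0.67 to −0.09 on NOR arrays, and it was 0.10 to 0.46 on AAT arrays.

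**Figure D1:**
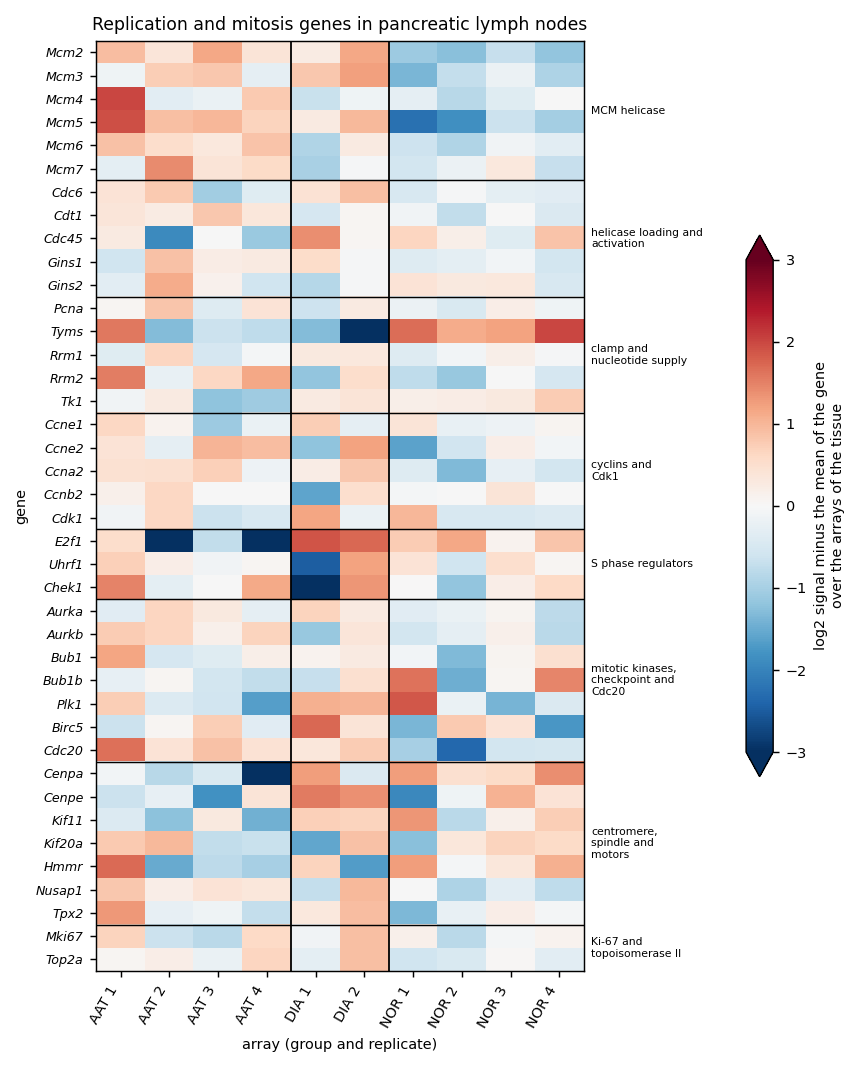
Deviation of each gene's log2 signal from its mean over the 10 node arrays (color, clipped at −3 and 3) for the 40 genes in rows, grouped by role, and the AAT, DIA and NOR arrays in columns. Mcm5, Mcm2 and Cdc20 are low on all 4 NOR arrays, and most genes are higher on DIA array 2 than on DIA array 1.

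The first comparison asks what differs in nodes at the onset of diabetes. In DIA nodes 30 of 40 genes lay above NOR relative to all probe sets (48.3% of all genes did), with a median log2 change of 0.50 against −0.04 for all genes. None was called by limma with Benjamini-Hochberg adjustment (0 of 40; 7 at an unadjusted p under 0.05; smallest adjusted p 0.137), and among all genes 0% were called higher and 0.033% lower. The methods' threshold passed 6 genes as higher, against 2.19% of all genes, and 1 as lower, against 7.83%. The 6 higher genes were Mcm2, Mcm3, Mcm5, Cdc20, Ccna2 and Cenpe. For 12 genes both DIA arrays lay above all NOR arrays (7.47% of all genes) and for 1 below (14.5%). In bulk tissue more cells of a type and more RNA per cell cannot be told apart. With DIA array 1 left out the median was 1.04, and without DIA array 2 it was −0.03, with 4 genes still past the threshold as higher and 4 as lower.

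The MCM helicase held 3 of the 6 genes past the threshold, and 5 of its 6 subunits lay above NOR (median 1.08; 4 of 6 after quantile normalization). Mcm5 had 8198 and 13409 in DIA nodes, against 1455, 1906, 4376 and 3364 in NOR nodes, a log2 change of 2.16 (SE 0.49, adjusted p 0.137, limma). Mcm3 had 5086 and 6885 in DIA nodes, against 1121, 1782, 2579 and 1528 in NOR nodes, a log2 change of 1.93 (SE 0.45, adjusted p 0.155). Both DIA arrays exceeded every NOR array for these subunits. Mcm2 had 909 and 1704 in DIA nodes, against 355, 317, 475 and 333 in NOR nodes, a log2 change of 1.88 (SE 0.49, adjusted p 0.195). Without DIA array 2 the change was 1.10 for Mcm2, 1.38 for Mcm3 and 1.48 for Mcm5. Mcm4, Mcm6 and Mcm7 had log2 changes of 0.08, 0.28 and −0.12. The subunits of this hexamer therefore did not share a change of the same size on these probe sets. Of the other probe sets of Mcm2, Mcm3 and Mcm5, which number 7, all but 1 had a positive log2 change, from 0.06 to 2.44.

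Among mitotic regulators, Cdc20 had 1946 and 2601 in DIA nodes, against 779, 301, 1052 and 1075 in NOR nodes, a log2 change of 1.76 (SE 0.53, adjusted p 0.273, limma). Ccna2, the cyclin of S and G2 phase, had 1616 and 2434 in DIA nodes, against 1063, 550, 1167 and 946 in NOR nodes (log2 change 1.26, SE 0.46). Cenpe, a kinesin of the kinetochore, had 942 and 822 in DIA nodes, against 83.4, 289, 655 and 421 in NOR nodes (log2 change 1.74, SE 0.77). For all 3 the DIA arrays lay above the NOR arrays, and without DIA array 2 Ccna2 had 0.63. Birc5, which encodes the survivin subunit of the chromosomal passenger complex, had 1100 and 435 in DIA nodes, against 128, 566, 439 and 98.0 in NOR nodes, and overlapped. The mitotic kinase, checkpoint and Cdc20 group as a whole had 6 of 7 genes above NOR with a median of 0.89, and Mki67 and Top2a had 0.68 and 0.75. The centromere and spindle group was split, with 4 of 7 above.

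Tyms, thymidylate synthase, ran the other way on its chosen probe set, with 50.9 and 10.5 in DIA nodes, against 401, 272, 292 and 502 in NOR nodes (log2 change −3.83, SE 0.96, adjusted p 0.153, limma). Of its other 3 probe sets, 1 lay below NOR and the rest had 0.72 and 0.88. In a fit of the DIA and NOR arrays alone 2 genes were called, Mcm3 (adjusted p 0.0459) and Tyms (0.0426). For Hmmr, a hyaluronan receptor that also acts at the spindle, the chosen probe set had −1.05 and another had 2.07, with 996 and 354 in DIA nodes, against 204, 109, 130 and 190 in NOR nodes on that other probe set (adjusted p 0.411, limma). This was the only other probe set of the 56 with the opposite sign and an unadjusted p under 0.05 in this comparison.

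**Figure D2:**
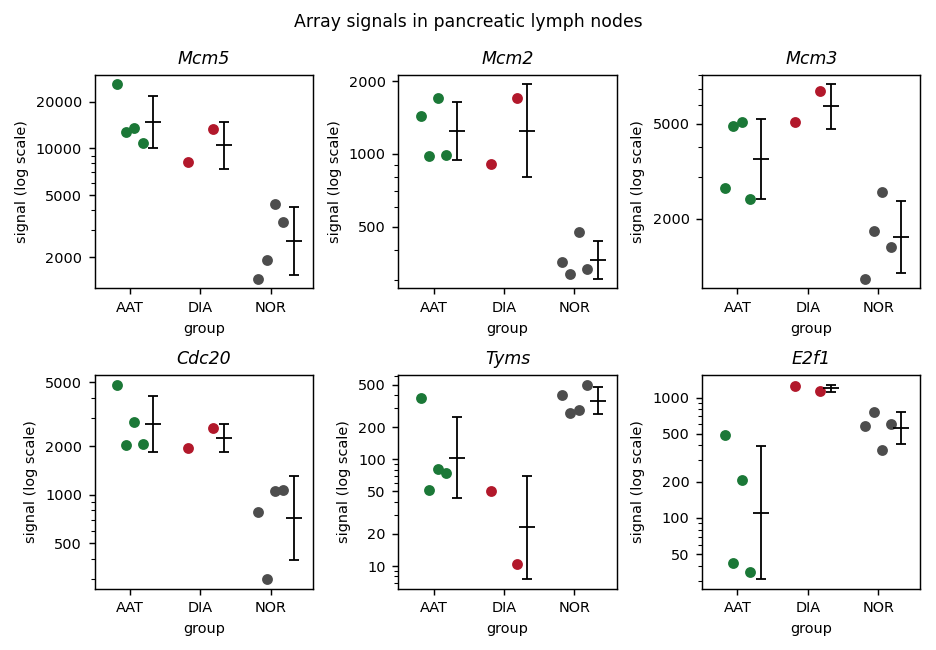
Signals of 6 genes on each node array (log axis, points), with the mean and SD of the log2 signals of each group in black (n = 4 AAT, 2 DIA, 4 NOR). Mcm5, Mcm2 and Cdc20 are above all NOR arrays in both other groups, and E2f1 is lower on the AAT arrays than on the DIA arrays.

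The comparison of AAT with NOR nodes sets treated diabetic mice beside normoglycemic mice. In AAT nodes 32 of 40 genes lay above NOR relative to all probe sets (57.3% of all genes), with a median log2 change of 1.07 against 0.22 for all genes. The change of all genes climbed with signal level, so the 40 were also set against the median of their level. In bins of mean log2 signal bounded at 7, 8, 9, 10, 11 and 12, from lowest to highest, 1 of 2, 4 of 6, 10 of 14, 4 of 6, 2 of 3, 4 of 4 and 3 of 5 lay above it. At 12 and over their median was 1.66 against 1.49 for all genes. Called higher were 3 genes, against 1.81% of all genes, and called lower 0, against 1.84%. When low signals were raised to each array's 20th percentile, 5 were called higher and 2 lower, the 2 being E2f1 and Cenpa. The methods' threshold passed 6 as higher (5.01% of all genes) and 4 as lower (15.7%), and 18 and 1 once arrays were centered on their medians. All AAT arrays lay above all NOR arrays for 7 genes (5.31%) and below for 1 (8.94%). All 6 MCM subunits lay above NOR, with a median of 1.83, and did so under each scaling of the arrays tried. The chosen probe sets of all 6 have names ending in _x_at or _s_at, kinds described below. Over the whole array, at a mean log2 signal of 11 and over, the median change was 1.66 for _x_at and 1.28 for _s_at probe sets. With these kinds left out Mcm2 had −1.51, while Mcm5 stayed above NOR. The groups of cyclins and Cdk1, of mitotic kinases, checkpoint and Cdc20, and of helicase loading had 5 of 5, 6 of 7 and 4 of 5 genes above NOR on this relative scale. As measured, the mean log2 signal of Ccne1 was 9.12 in AAT and 9.28 in NOR nodes, and that of Cdk1 8.33 and 8.39. Ccne2, Ccna2 and Ccnb2 had higher means in AAT nodes.

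Mcm5 had 25862, 12822, 13612 and 10761 in AAT nodes, against 1455, 1906, 4376 and 3364 in NOR nodes, and rose by 3.28 on the log2 scale (SE 0.40, adjusted p 0.0067, limma). Cdc20 had 4827, 2037, 2834 and 2073 in AAT nodes, against 779, 301, 1052 and 1075 in NOR nodes, and rose by 2.66 (SE 0.43, adjusted p 0.0241). Mcm2 had 1437, 979, 1697 and 988 in AAT nodes, against 355, 317, 475 and 333 in NOR nodes, and rose by 2.48 (SE 0.40, adjusted p 0.0254). Every AAT array exceeded every NOR array for these 3 genes, a helicase pair and the activator that starts anaphase. Mcm5 was called with each array left out in turn. Mcm2 and Cdc20 were not called when any 1 of the 4 NOR arrays, or AAT array 3, was left out (adjusted p up to 0.0950 for Mcm2 and 0.0876 for Cdc20). None of the 3 was called with eBayes without a trend.

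Further genes passed the methods' threshold without being called. Mcm6 had a log2 change of 1.85 (adjusted p 0.0659, limma), Rrm2, the regulated subunit of ribonucleotide reductase, 2.10 (0.0705) and Mcm3 1.81 (0.0882). Rrm2 had 10449, 3081, 5493 and 8044 in AAT nodes, against 2119, 1628, 3548 and 2558 in NOR nodes, and overlapped on AAT array 2. Ccna2, which did not pass the threshold, had 1902, 1926, 2269 and 1237 in AAT nodes, each above the NOR arrays (1.72, adjusted p 0.112). Mcm3 overlapped as well, at 2679, 4889, 5068 and 2418 in AAT nodes, against 2579 as the highest NOR array. E2f1, the S phase transcription factor, was below NOR by the same threshold (log2 change −1.61, adjusted p 0.0571), as was Cenpa, the centromeric histone H3 variant (−1.33, adjusted p 0.0701). Cenpa had 276, 166, 213 and 33.2 in AAT nodes, against 698, 412, 435 and 765 in NOR nodes, and its other probe sets had −0.06 and −0.29.

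The next comparison, AAT vs DIA nodes, shares the 2 DIA arrays with the first, and the values of each are given side by side. In AAT nodes 29 of 40 genes lay above DIA (58.1% of all genes), with a median log2 change of 0.52 against 0.26 for all genes. The median change of all genes climbed with signal level, from −0.31 below a mean log2 signal of 7 to 1.31 at 12 and over. The 40 genes were also set against the median of all genes of their level, in bins bounded at 7, 8, 9, 10, 11 and 12. From the lowest bin to the highest, 1 of 2, 5 of 6, 6 of 14, 3 of 6, 1 of 3, 3 of 4 and 2 of 5 lay above it. No gene was called (0 of 40 by limma; 6 at an unadjusted p under 0.05; smallest adjusted p 0.0969), against 0.181% of all genes called higher and 0.022% lower. The methods' threshold passed 2 genes as higher (7.59% of all genes) and 3 as lower (8.57%), or 8 and 1 with arrays centered on their medians. Groups did not overlap for 3 genes higher in AAT nodes (8.04%) and 5 lower (10.2%). Without AAT array 3 the median was 0.57. Without DIA array 2, which leaves 1 DIA array, it was 1.20. Without DIA array 1 the median was −0.14. With the mean over all probe sets of a gene it was −0.15.

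E2f1 had 488, 42.2, 205 and 35.4 in AAT nodes, against 1254 and 1129 in DIA nodes, a log2 change of −2.85 (SE 0.84, adjusted p 0.0969, limma). Its other probe sets also lay below, at −1.20 and −1.53, and without AAT array 1 it was called (adjusted p 0.0247). In DIA vs NOR E2f1 had a log2 change of 1.21, and NOR nodes had 576, 755, 368 and 602. Cenpe had 202, 267, 90.2 and 413 in AAT nodes, against 942 and 822 in DIA nodes (log2 change −1.47, SE 0.77). Kif11, the motor that separates spindle poles, had 491, 277, 793 and 240 in AAT nodes, against 1061 and 1041 in DIA nodes (−0.81, SE 0.61), and NOR nodes had 1636, 372, 724 and 1086. For these 3 genes no AAT array reached the DIA arrays, and without DIA array 2 Kif11 had −0.44.

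Of the genes above DIA, Mcm7 had 2717, 8914, 4355 and 4935 in AAT nodes, against 1699 and 3217 in DIA nodes (log2 change 1.61, SE 0.48, adjusted p 0.285, limma). Mcm6 had a log2 change of 1.54 (SE 0.42, adjusted p 0.265). Without DIA array 1 Mcm7 had 0.87 and Mcm6 0.68, and without DIA array 2 they had 2.45 and 2.51. Mcm5 and Mcm2 had 1.08 and 0.58 with overlapping groups. Mcm3 had −0.15. The subunits that stood highest in DIA vs NOR were not those that stood highest in AAT vs DIA. Both comparisons hold the same 2 DIA arrays with opposite sign, so a subunit high on them ranks up in the first and down in the second. No conclusion is drawn from this order. In AAT vs DIA the sign of Mcm6 and Mcm7 also turned under some of the alternatives given below, down to −0.17 and −0.23. Tyms had 374, 51.4, 81.0 and 74.5 in AAT nodes, against 50.9 and 10.5 in DIA nodes (log2 change 2.75, SE 0.96, adjusted p 0.267), while its other probe sets had −0.61, −2.41 and −1.88. Uhrf1, a DNA methylation maintenance factor, had 1651, 1142, 934 and 1048 in AAT nodes, 179 and 2293 in DIA nodes and 1335, 662, 1405 and 1046 in NOR nodes. DIA array 1 was thus the lowest of the node arrays and DIA array 2 the highest. Chek1, the S phase checkpoint kinase, had 29.7 on DIA array 1, against 127 to 803 on the others.

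Probe sets of a gene did not always run together, and the changes in AAT vs NOR moved with the signal level and with the kind of probe set. Only 22 of the 56 other probe sets of these genes shared the sign of the chosen one in AAT vs DIA, with 8 of opposite sign at an unadjusted p under 0.05, and 30 of 56 did in AAT vs NOR, with 9 of opposite sign. Names ending in _x_at mark probe sets with probes that may match other transcripts, and those ending in _s_at mark probe sets shared by several transcripts. The chosen probe sets of Mcm5 and Cdc20 end in _x_at and that of Mcm2 in _s_at. Over the whole array the median log2 change in AAT vs NOR was 0.82 for _x_at and −0.11 for plain _at probe sets, and 7.74% against 0.41% were called higher. Among probe sets at a mean log2 signal of 11 and over, where Mcm5 lies, 23.2% of _x_at probe sets were called higher, and among those at 9 to 11, where Cdc20 lies, 10.4%, while of _s_at probe sets at 9 to 11, where Mcm2 lies, 2.1% were. The median change of all genes was −0.48 below a mean log2 signal of 7 and 1.49 at 12 and over. The median array signal was lower in AAT nodes than in NOR nodes, as given above. The part of these properties in the called genes was not tested.

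**Figure D3:**
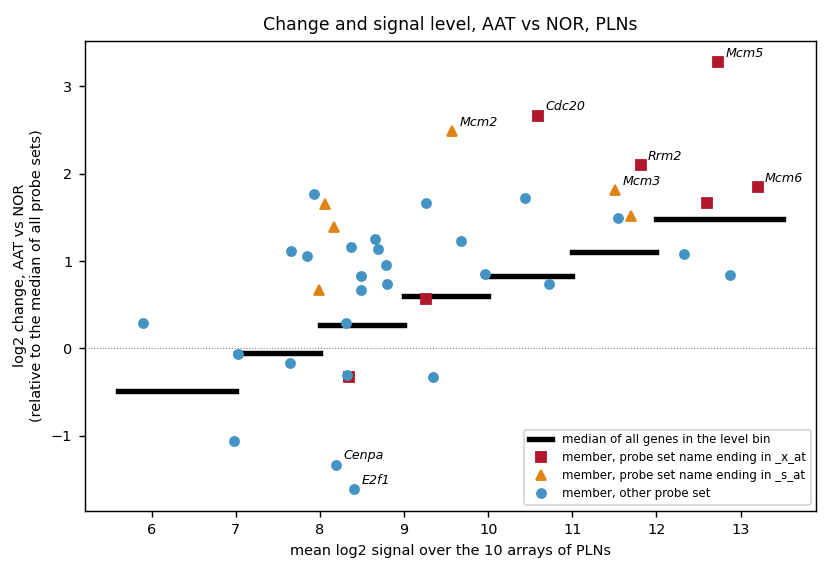
Log2 change in AAT vs NOR nodes relative to all probe sets (vertical axis) against the mean log2 signal over the 10 node arrays (horizontal axis) for the 40 genes, by kind of probe set, with the median of all genes per level bin as black bars. The bars climb from −0.48 to 1.49, and Mcm5, Cdc20 and Mcm2 lie above the bar of their level.

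Other probe sets of the called genes were dimmer. Mcm2 on its other probe set had 7.34, 464, 63.2 and 53.6 in AAT nodes, against 212, 461, 306 and 190 in NOR nodes, a log2 change of −1.51 in the direction opposite to the chosen probe set (adjusted p 0.137, limma). The other probe sets of Cdc20 had −0.90 and 1.38, and those of Mcm5 had 1.95 and 2.86. Mcm5 was thus higher in AAT nodes on all 3 of its probe sets. With probe sets named _x_at or _s_at left out, 39 genes were measured and 0 were called by limma, with a median log2 change of 0.83.

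Markers of some other cell types differed between the node groups in their summed signals, which follow the brightest markers, and less evenly gene by gene. Of 10 listed markers of germinal centre B cells, 9 were measured, and their signals summed to 11981 to 28445 in AAT nodes, 6799 to 13213 in DIA nodes and 4522 to 7174 in NOR nodes. Gene by gene, 6 of the 9 lay above NOR in AAT nodes (median log2 change 1.02), 4 of 9 above DIA in AAT nodes (−0.03) and 6 of 9 above NOR in DIA nodes (1.44). All 8 plasma cell markers were measured and summed to 18435 to 40023 in AAT nodes, 9526 to 15354 in DIA nodes and 5946 to 7673 in NOR nodes, with 8 of 8 above NOR in AAT nodes, 7 of 8 above DIA in AAT nodes and 5 of 8 above NOR in DIA nodes. The B cell markers summed to 15157 to 29964 in AAT nodes, 19755 to 45249 in DIA nodes and 17020 to 22128 in NOR nodes, with the highest sum on DIA array 2, the array on which most of the 40 genes stood high. Of these 9 markers, 8 lay above NOR in AAT nodes, 5 above DIA in AAT nodes and 8 above NOR in DIA nodes. T cell markers overlapped, at 18851 to 33836 in AAT nodes, 19057 to 25361 in DIA nodes and 18430 to 34518.5 in NOR nodes, and of 8 measured 6, 6 and 4 did. Endothelial sums overlapped too, and of 8 markers 7, 7 and 1 did. Macrophage markers summed to 56617 to 103206 in AAT nodes, 51339 to 67230 in DIA nodes and 34633 to 55355 in NOR nodes, and adipocyte markers to 8817 to 37302 in AAT nodes, 2632 to 4788 in DIA nodes and 3549 to 7322 in NOR nodes. Of the 10 macrophage markers, 8 lay above NOR in AAT nodes (median 1.00), 6 above DIA in AAT nodes (0.94) and 4 above NOR in DIA nodes (−0.59), and of the 8 adipocyte markers 8, 5 and 4 did. The ratio of the 3' to the 5' Gapdh probe sets, a sign of RNA degradation or short cRNA, was 7.43, 20.6, 8.30 and 25.0 in AAT nodes, at most 10.8 in DIA nodes and 5.55 to 8.01 in NOR nodes, so that AAT array 1 lay within the NOR range. The same ratio for actin did not follow the groups, at 1.23 to 2.01 in AAT nodes, 0.88 to 1.10 in DIA nodes and 0.94 to 2.31 in NOR nodes. Their part in the results above was not tested.

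Neighbouring genes of the same processes, from lists outside the 40 genes, were set beside them. Of 24 measured genes of origin recognition and the replicative polymerases, 17 lay above NOR in AAT nodes (median log2 change 0.90), and 2 were called higher by limma, against the 1.81% of all genes given above. These were Fen1, the flap endonuclease of Okazaki fragments (2.43, SE 0.39, adjusted p 0.0260), and Rfc2, a subunit of the clamp loader (2.23, SE 0.37, adjusted p 0.0339). Of 30 genes of chromosome condensation, the kinetochore and cytokinesis, 23 lay above NOR in AAT nodes (median 1.03) and 2 were called higher, against 1.81% of all genes. These were Incenp, the scaffold of the chromosomal passenger complex (2.81, SE 0.45, adjusted p 0.0223), and Kif2c, a microtubule-depolymerizing kinesin (2.29, SE 0.43, adjusted p 0.0480). All 4 were measured by probe sets named _x_at, of which 7.74% over the whole array were called higher. Of 12 cell cycle transcription factors 10 lay above NOR, of 17 G1 cyclins, kinases and CDK inhibitors 10, and of 9 S phase DNA repair genes 9, with 0 called in each list. In DIA vs NOR nodes the same lists had 12 of 24, 19 of 30, 8 of 12, 12 of 17 and 6 of 9 genes above, with 0 called. Among them the replicative ligase Lig1 had a log2 change of 1.37, the E2F partner Tfdp1 1.24 and the phosphatase Cdc25a −1.87. In AAT vs DIA nodes they had 18 of 24, 22 of 30, 9 of 12, 8 of 17 and 4 of 9 above, with 0 called. Among them Lin54, a DNA-binding subunit of the MuvB complex, had 3.09 and the CDK inhibitor Cdkn2a −3.23.

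In fat, 7 of the 40 genes lay above the array's median signal on all 9 arrays and 6 on none, so that many of the values are near the low end of the array. Mcm7, an MCM subunit, had 2080, 2081 and 1432 in PM fat, 2264 and 2156 in AAT fat, 2278 and 1250 in DIA fat and 1257 and 1549 in NOR fat. Cdt1, the loading factor, had 588, 770 and 399 in PM fat, 536 and 1057 in AAT fat, 471 and 389 in DIA fat and 762 and 704 in NOR fat. For Cdt1 the DIA arrays and PM array 3 were lowest, and Mcm7 had no such order. E2f1 had 231, 407 and 162 in PM fat, 91.7 and 317 in AAT fat, 127 and 291 in DIA fat and 239 and 244 in NOR fat. Top2a, the topoisomerase that untangles replicated DNA, had 127, 399 and 222 in PM fat, 210 and 103 in AAT fat, 252 and 184 in DIA fat and 154 and 320 in NOR fat, and both genes overlapped in all groups.

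In DIA fat 10 of 40 genes lay above NOR fat (49.7% of all genes), with a median log2 change of −0.33 against −0.01 for all genes, the opposite side of that in nodes. None was called by limma (0 of 40 and 0% of all genes in either direction; 5 at an unadjusted p under 0.05; smallest adjusted p 0.433). The methods' threshold passed 1 gene as higher, against 3.24% of all genes, and 4 as lower, against 3.62%. Groups did not overlap for 4 genes higher (17.2%) and 13 lower (24.1%). None of the 5 genes of the clamp and nucleotide supply, of the 7 mitotic kinases and checkpoint genes or of the 7 centromere and spindle genes lay above NOR, while 4 of 6 MCM subunits did. The median was −0.11 without DIA array 1 and −0.63 without DIA array 2.

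Pcna had 829 and 736 in DIA fat, against 1512 and 1854 in NOR fat, a log2 change of −0.99 (SE 0.34, adjusted p 0.433, limma). Cdk1, the kinase that drives entry into mitosis, had 26.6 and 199 in DIA fat, against 732 and 293 in NOR fat (−2.56, SE 0.89, adjusted p 0.451). Ccna2 had 298 and 160 in DIA fat, against 594 and 445 in NOR fat (−1.13, SE 0.51, adjusted p 0.519). Aurkb, the kinase of the passenger complex, had 62.0 and 24.1 in DIA fat, against 328 and 183 in NOR fat (−2.56, SE 1.12, adjusted p 0.524), and its other probe set had −3.34. Both DIA arrays lay below both NOR arrays for all 4 genes. Cdk1 had −1.08 without DIA array 1 and −4.10 without DIA array 2, and Pcna had −0.65 without NOR array 2. Mcm5 stood on the other side, with 455 and 438 in DIA fat, against 108 and 294 in NOR fat (1.43, SE 0.57, adjusted p 0.539), but its other probe sets had −2.96 and −1.78. Mcm2 had 497 and 484 in DIA fat, against 165 and 297 in NOR fat (1.25, SE 0.64). Without NOR array 1 Mcm5 had 0.58 and Mcm2 0.70. The ratio of the 3' to the 5' actin probe sets was 15.2 to 15.5 in DIA fat and 3.63 to 4.30 in NOR fat. Macrophage markers summed to 13894 to 28979 in DIA fat and 7773 to 8115 in NOR fat, and erythroid markers to 1150 to 1493 in DIA fat and 3026 to 7000 in NOR fat. The part of these differences was not tested.

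**Figure D4:**
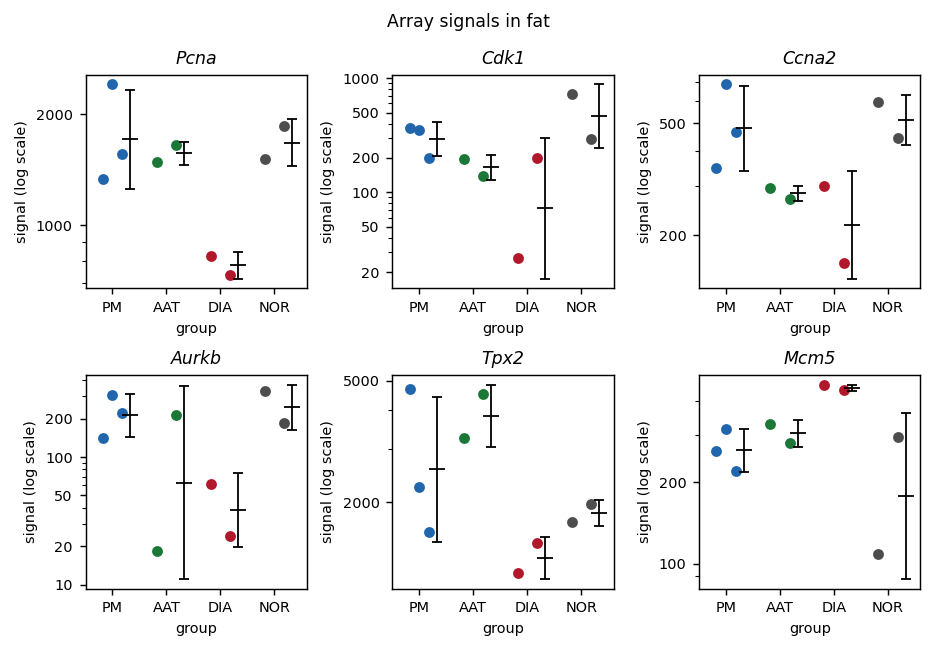
Signals of 6 genes on each fat array (log axis, points), with the mean and SD of the log2 signals of each group in black (n = 3 PM, 2 AAT, 2 DIA, 2 NOR). Pcna lies at 829 and 736 on the DIA arrays and at 1331 or more on every other array, while Mcm5 is highest on the DIA arrays.

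The treatments were compared with the same 2 DIA fat arrays, so these results share them. In AAT fat 22 of 40 genes lay above DIA fat (53.4% of all genes; median 0.11), with 0 called by limma (0% of all genes; 3 at an unadjusted p under 0.05). The threshold passed 2 genes as higher, against 2.1% of all genes, and 1 as lower, against 1.62%. Groups did not overlap for 5 genes higher (16.4%) and 8 lower (15.9%). Tpx2, which activates Aurora A on the spindle, had 3243 and 4537 in AAT fat, against 1174 and 1469 in DIA fat (log2 change 1.59, SE 0.44, adjusted p 1.00, limma). In all fat comparisons Tpx2 was read by a probe set other than the one chosen in nodes. That fat probe set was dim in NOR nodes, as given below. Pcna had 1489 and 1646 in AAT fat, against 829 and 736 in DIA fat (1.05, SE 0.34). Gins1, a subunit of GINS, had 27.3 and 56.8 in AAT fat, against 185 and 152 in DIA fat (−2.04, SE 0.87). Both AAT arrays stood outside the DIA arrays for these 3 genes. Tk1, thymidine kinase, had 112 and 146 in AAT fat, against 13.6 and 31.3 in DIA fat, Hmmr 120 and 304 in AAT fat, against 480 and 467 in DIA fat, and Birc5 14.7 and 7.19 in AAT fat, against 21.2 and 157 in DIA fat. Without DIA array 2 Birc5 had −0.92, against −2.44 with both. The actin ratio was 5.87 to 9.08 in AAT fat and 15.2 to 15.5 in DIA fat, and its part was not tested.

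In PM fat 23 of 40 genes lay above DIA fat (48.1% of all genes; median 0.21), with 0 called by limma (0% of all genes; 5 at an unadjusted p under 0.05; smallest adjusted p 0.364). The threshold passed 4 genes as higher, against 4.09% of all genes, and 0 as lower, against 3.09%, or 1 and 1 with arrays centered on their medians. Groups did not overlap for 9 genes higher (18.8%) and 5 lower (12.5%). The 4 were the genes that passed as lower in DIA vs NOR fat, a comparison with the same DIA arrays. Pcna had 1331, 2409 and 1558 in PM fat, against 829 and 736 in DIA fat (log2 change 0.98, SE 0.31, adjusted p 0.364). Cdk1 had 363, 350 and 199 in PM fat, against 26.6 and 199 in DIA fat (1.86, SE 0.82), and overlapped, with a change of 0.39 without DIA array 1 and 3.40 without DIA array 2. Ccna2 had 346, 688 and 464 in PM fat, against 298 and 160 in DIA fat (0.99, SE 0.47, and 0.62 without DIA array 2), and Aurkb 141, 308 and 220 in PM fat, against 62.0 and 24.1 in DIA fat (2.31, SE 1.02). Tpx2 had 4690, 2245 and 1597 in PM fat (0.82, and 0.26 without PM array 1) and Ccne2, an S phase cyclin, 158, 287 and 262 in PM fat, against 62.8 and 89.8 in DIA fat (1.46). Cdc20 had 425, 530 and 321 in PM fat, 297 and 389 in AAT fat, 312 and 268 in DIA fat and 388 and 346 in NOR fat. Every PM array exceeded both DIA arrays for Pcna, Ccna2, Aurkb, Ccne2, Tpx2 and Cdc20. The 3' to 5' ratio was 3.35 to 6.32 in PM fat and 15.2 to 15.5 in DIA fat for actin, and 0.90 to 1.08 in PM fat and 2.46 to 4.63 in DIA fat for Gapdh. Macrophage markers summed to 11050 to 12293 in PM fat and 13894 to 28979 in DIA fat, with 1 of 10 above DIA, and the part of these differences was not tested.

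Against NOR fat, 17 of 40 genes lay above in AAT fat (52.6% of all genes; median −0.38) and 14 of 40 in PM fat (47.4%; median −0.19), with 0 called in each by limma (0% of all genes) and 3 in each at an unadjusted p under 0.05. The threshold passed 1 gene as higher (2.42% of all genes) and 2 as lower (2.17%) in AAT fat, and 1 as higher (1.72%) and 2 as lower (0.704%) in PM fat. Groups did not overlap for 3 genes higher (13.9%) and 12 lower (17.7%) in AAT fat, and for 1 higher (7.52%) and 3 lower (6.95%) in PM fat. In AAT vs NOR fat Hmmr had a log2 change of −1.96, Birc5 −3.11 and Tpx2 1.19, and in PM vs NOR fat Gins1 had 2.06, Bub1b −2.54 and Mki67 −1.94. PM fat set against AAT fat had 21 of 40 above (45.2%; median 0.09), 0 called by limma and 5 at an unadjusted p under 0.05. The threshold passed 3 genes there as higher, against 2.4% of all genes, and 2 as lower, against 2.34%, and groups did not overlap for 6 genes higher (11.6%) and 4 lower (9.49%). Gins1 had 253, 271 and 320 in PM fat, against 27.3 and 56.8 in AAT fat (log2 change 2.66, SE 0.80, adjusted p 0.632, limma), and Hmmr 420, 1363 and 952 in PM fat, against 120 and 304 in AAT fat (1.93, SE 0.64, adjusted p 0.715). Birc5 had 2.67, Bub1b −2.82 and Cenpe −2.90. The pathway lists held 0 called genes in every fat comparison. In PM vs DIA fat the clamp loader subunit Rfc4 had a log2 change of 1.34, the chromokinesin Kif4 2.43 and Incenp −1.82, and in DIA vs NOR fat E2f8, a repressor of the E2F family, had −3.15.

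The tissues differed most. In NOR nodes set against NOR fat, in a fit of all 19 arrays that used the probe set with the highest mean over both tissues, 35 of 40 genes lay above, with a median log2 change of 1.48 against −0.18 for all genes. Called higher in nodes were 16 genes, against 11.3% of all genes, and called lower 1, against 13.2%. Mcm6 had 5046 to 8828 in NOR nodes and 262 to 352 in NOR fat and was higher in nodes by 4.52 (SE 0.42, adjusted p 9.5e-08, limma). Mki67 had 4263 to 8314 in NOR nodes and 257 to 449 in NOR fat (4.35, SE 0.61, adjusted p 2.5e-05), and Mcm5 1455 to 4376 in NOR nodes and 108 to 294 in NOR fat (3.87, SE 0.48, adjusted p 5.4e-06). The called genes were mostly of replication: 4 of the 6 MCM subunits, Cdc6, Cdt1 and Gins1, Pcna, Rrm1, Rrm2 and Tk1, with Ccna2, Uhrf1, Cenpe, Kif11 and Mki67. Cdc45, Ccne2 and Cdk1 had 0.02, 0.06 and −0.42. Tpx2 was the exception called lower, with 16.2 to 163 in NOR nodes and 1723 to 1977 in NOR fat (−4.89, SE 0.83), on a probe set that is not the one chosen within nodes. The count of called genes, 17 in all, was 10 without NOR fat array 1 and 11 without NOR fat array 2. The tissues also differ in cell makeup, and that part was not tested.

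**Figure D5:**
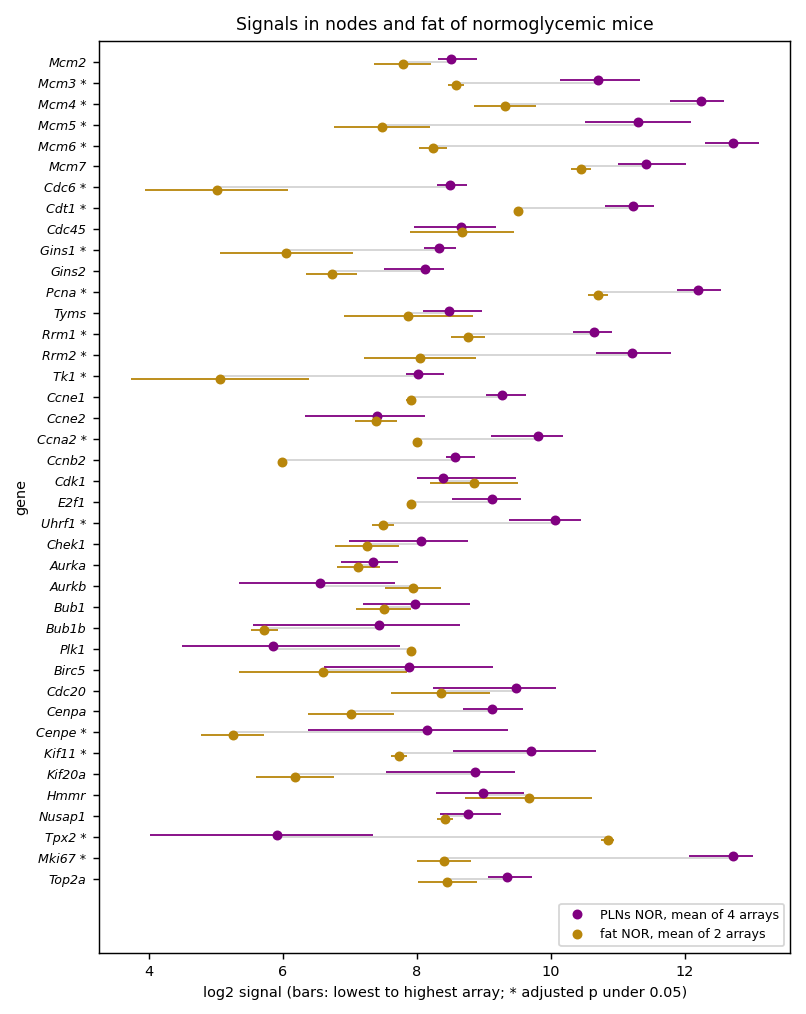
Mean log2 signal of each gene (horizontal axis) in NOR nodes (4 arrays) and NOR fat (2 arrays), with bars from the lowest to the highest array and an asterisk at an adjusted p under 0.05. Mcm6, Mki67 and Mcm5 are farthest apart on the side of nodes, and Tpx2 on the side of fat.

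Whether a group difference itself differed between tissues was tested as an interaction. The DIA vs NOR change, fat minus nodes, was called for 0 of 40 genes by limma (0.011% of all genes were called higher and 0% lower), with 6 at an unadjusted p under 0.05. Among these 6, Mcm3 had −2.32 (SE 0.68, adjusted p 0.322), Cdk1 −3.35, Aurkb −4.03, Cdc20 −2.07 and Mki67 −2.06, while Tyms had 3.12. The AAT vs DIA change, fat minus nodes, was called for 0 of 40 (0% of all genes), with 3 at an unadjusted p under 0.05, E2f1 at 2.78 (SE 1.27, adjusted p 0.527), Tk1 at 3.01 and Gins1 at −2.51. The opposite sides on which the 40 genes stood in DIA nodes and DIA fat were thus not a called difference for any single gene.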

How the data were processed

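Total RNA of pancreatic lymph nodes and fat was hybridized to 19 Affymetrix Mouse 430 2.0 arrays. The deposited values are MAS5 signal intensity values, scaled by the authors so that the trimmed mean (2% trimmed) of each array is 500. Which version of MAS5 was run is not given in the sources used. The study's own methods used RMA and rank products, which were not applied to these values. After removal of 64 control probe sets, 45037 remained, of which 34945 name 1 gene, 932 several and 9160 none in the platform annotation used. Where a gene had several, the brightest by mean log2 signal in the tissue was used.

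Signals were floored at 1, log2 transformed and fitted per tissue with limma 3.58.1 (R 4.3.3; lmFit and eBayes with a trend), with Benjamini-Hochberg adjustment over all probe sets. The fit was also run on simulated data with large changes in bright probe sets only. That run does not cover smaller changes or dimmer probe sets, and no conclusion is drawn from it. Genes named with values on every array included those called, the gene with the highest mean in each role and the 6 with the smallest p in certain comparisons. These comparisons were DIA vs NOR and AAT vs DIA in each tissue and PM vs DIA in fat. Some of these genes were also given in other comparisons. Rrm2 and Cenpa, which passed the methods' threshold in AAT vs NOR nodes, were given as well. From each pathway list up to 3 genes with the smallest p were eligible. Other probe sets were named where their sign was opposite at an unadjusted p under 0.05 or the gene was among those named. The genes and lists were chosen with earlier results of these data known. The number of arrays limits precision. Alternatives were the fit of 2 groups alone, a replicate block, a filter at the 40th percentile, quantile normalization, centering on the array median, a floor at the 20th percentile, a pseudocount of 32, no trend, the mean over probe sets, 1 probe set per gene, and each array left out. Leaving out probe sets named _x_at or _s_at was chosen after seeing the data.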

Additional observations from a re-analysis of the deposited data

Results flagged for a closer look

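Among 82 groups of 4 arrays, 3 held an array set apart from the other 3 by a gap larger than Dixon's critical value, and chance alone flags about 1 in 20 groups. Gins2 had 182 in NOR node array 4, against 312 to 338 in the other NOR nodes. Ccnb2 had 469 in NOR node array 3, against 346 to 357 in the others. Cdk1 had 711 in NOR node array 1, against 255 to 271 in the others. The 3 arrays differ, and none of these genes was called in a comparison of nodes.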

How the results depend on the processing

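In DIA vs NOR nodes the fit of 2 groups alone called 2 genes in place of 0. In AAT vs DIA nodes the median change of the 40 genes, 0.52, was 0.15 after quantile normalization, −0.15 with the mean over probe sets and 0.20 with _x_at and _s_at probe sets left out. In AAT vs NOR nodes the 3 calls became 7 with centering on array medians, 7 with the floor at the 20th percentile (5 higher and 2 lower), 0 without a trend, 1 with the mean over probe sets and 0 with _x_at and _s_at probe sets left out, and the median, 1.07, was 0.56 after quantile normalization, 0.79 with the pseudocount of 32 and 0.39 with the mean over probe sets. In fat the median was −0.57 in DIA vs NOR without _x_at and _s_at probe sets and −0.043 in AAT vs NOR with the filter at the 40th percentile. The cause was not tested.

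With the mean over probe sets the sign turned for Mcm6 (−0.17) and Tyms (−0.60) in AAT vs DIA nodes and for Mcm5 (−1.08) in DIA vs NOR fat. With _x_at and _s_at probe sets left out it turned for Mcm6 (−0.036) and Mcm7 (−0.23) in AAT vs DIA nodes, Mcm2 (−1.51) and Cdc20 (−0.90) in AAT vs NOR nodes, Mcm2 (−0.65) and Mcm5 (−2.96) in DIA vs NOR fat and Hmmr (0.10) in AAT vs DIA fat.

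With single arrays left out the median ranged from −0.030 to 1.04 in DIA vs NOR nodes, from −0.14 to 1.20 in AAT vs DIA nodes (0 to 2 calls) and from 0.89 to 1.24 in AAT vs NOR nodes (1 to 5 calls). In fat it ranged from −0.63 to −0.11 in DIA vs NOR, from −0.23 to 0.22 in AAT vs DIA, from −0.053 to 0.43 in PM vs DIA, from −0.51 to 0.065 in AAT vs NOR, from −0.28 to −0.0060 in PM vs NOR and from −0.12 to 0.18 in PM vs AAT, with 0 calls. NOR nodes vs NOR fat had 10 to 18 calls.

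Arrays of the same replicate number did not deviate together throughout (correlations −0.04 to 0.28 in nodes and −0.26 to 0.29 in fat), so the numbers are not shown to pair arrays. With the replicate number as a block 7 genes were called in AAT vs NOR nodes (5 higher and 2 lower), and other counts of calls stayed within 1.5 times. In fat, 6 of the 40 genes were above the array's median signal on no array.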
